A study of Mus musculus with 18 samples.

Results

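The genes described here are 39 mouse genes of the integrated stress response and of protein folding in the endoplasmic reticulum (ER), picked by name out of 24421 gene symbols counted in each library. They fall into 7 stress sensors and core factors, 17 genes of the ATF4 branch and 15 genes of the ER itself (9 chaperones and cofactors, 3 protein disulphide isomerases and 3 genes of ER-associated degradation). RNA was counted in left ventricles of C57BL/6J mice, 3 libraries in each of 6 groups. The groups were Sesn2-/- mice aged 3 to 4 months (Sesn2-KO), wild-type (WT) mice aged 24 to 26 months (aged) and WT mice aged 3 to 4 months (young), each after ischaemia and reperfusion (IR) or sham surgery. In IR, flow through the left anterior descending coronary artery was stopped for 45 min and then restored for 24 h, while sham mice had the chest opened only. Each genotype and age had its own source: Sesn2-KO mice were bred in the submitters' laboratory, aged mice came from Charles River and young mice from Jackson, so source cannot be told apart from age or genotype. No other allele or agent is named for any group. The study asks how the stress-induced protein sestrin 2 (Sesn2) and age bear on the response of the heart to IR. Libraries are named by group and replicate number, as in young IR 1.

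The integrated stress response begins when kinases such as PERK (Eif2ak3) or GCN2 (Eif2ak4) phosphorylate the translation factor eIF2 alpha (Eif2s1). General translation then falls, while the transcription factor ATF4 is translated more and switches on genes for amino acid supply, tRNA charging, redox control and, under lasting stress, cell death. The unfolded protein response of the ER runs beside it, through IRE1 (Ern1), which splices Xbp1 mRNA, and ATF6, which moves to the nucleus, and both raise chaperones such as BiP (Hspa5). In heart muscle these pathways are known to respond to ischaemia, and Sesn2 itself is a known ATF4 target. Gene counts show neither Xbp1 splicing nor ATF4 translation nor eIF2 alpha phosphorylation.

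Short promoter stretches are shown because DNA elements known from ER chaperone genes and from ATF4 targets can be read in them. RefSeq windows on GRCm38.p6, from 250 bases before to 50 bases after the transcription start, were matched for 34 of the 39 genes. They were searched on both strands for the ER stress element (ERSE, CCAAT, then any 9 bases, then CCACG), its second form (ERSE-II, ATTGG, then any base, then CCACG), the C/EBP-ATF composite element (CARE, TGATGNAA) and the unfolded protein response element (UPRE, TGACGTGG). No match of any of these overlapped a match of another. ERSE lay in 0.119% of 32851 windows and in those of Hspa5, Hsp90b1, Calr, Creld2 and Pdia6, that is in 5 of 13 ER genes with a window. ERSE-II lay in 0.0365% of windows and in those of Dnajb11 and Herpud1. CARE lay in 3.97% of windows and in those of 7 of 15 ATF4-branch genes with a window (among them Nupr1, Trib3, Chac1, Asns, Gars and Fgf21) and of Herpud1. UPRE lay in 0.676% of windows and in none of the 34. Each stretch below runs 5′ to 3′ on the strand of its gene, with the match and 12 bases on either side. Capitals mark the match, which reads as the reverse complement in Calr, Creld2, Chac1 and Gars.
Hspa5, ERSE (chr2:34772013-34772055, plus strand): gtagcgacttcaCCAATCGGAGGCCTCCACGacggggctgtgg
Calr, ERSE (chr8:84847063-84847105, minus strand): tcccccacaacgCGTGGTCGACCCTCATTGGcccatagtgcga
Creld2, ERSE (chr15:88819508-88819550, plus strand): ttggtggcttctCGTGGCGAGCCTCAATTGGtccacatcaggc
Pdia6, ERSE (chr12:17266479-17266521, plus strand): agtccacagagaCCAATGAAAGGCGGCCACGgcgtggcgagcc
Herpud1, ERSE-II (chr8:94386365-94386399, plus strand): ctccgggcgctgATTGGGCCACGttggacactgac
Asns, CARE (chr6:7693213-7693244, minus strand): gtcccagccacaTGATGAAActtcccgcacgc
Chac1, CARE (chr2:119351037-119351068, plus strand): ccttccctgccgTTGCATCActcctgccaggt
Gars, CARE (chr6:55037959-55037990, plus strand): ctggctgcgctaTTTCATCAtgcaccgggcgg
These matches describe letters in a window and are not evidence of binding.

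The libraries held 9404531 to 14458047 counts in genes, and 13859 genes were abundant enough to be tested. Of the 39 genes, 38 were tested. The exception was Fgf21, a fasting and stress hormone, which had no count in 12 of the 18 libraries. Sesn2 followed the genotype labels, with 0 to 0.362 CPM (a count scaled to the same total of gene counts in every library) in Sesn2-KO libraries and 2.50 to 6.03 CPM in WT libraries. Cardiomyocyte markers (10 genes, among them Myh6 and Tnnt2) summed to 33696 to 48280 CPM, so the labelled tissue was recognisable. In 1 library of each group (Sesn2-KO IR 3, Sesn2-KO sham 3, aged IR 3, aged sham 1, young IR 3 and young sham 1) long transcripts ran above the group's average and short ones below, with a rank correlation of 0.29 to 0.45 between a gene's deviation and its length over 13344 genes. Other libraries deviated with length the other way, to -0.40 in young sham 2 and -0.33 in aged sham 2. The counts of called genes are also given without the 6 libraries named, which leaves the opposite deviations in place. Tissue was measured in bulk, so a change in the number of cells of a type and a change in RNA per cell cannot be told apart.

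Markers of several cell types differed between the same groups. Neutrophil markers (9 counted of 10 listed, none at 0 throughout a group) summed to 102 to 183 CPM in Sesn2-KO IR hearts and 41.6 to 95.2 CPM in Sesn2-KO sham hearts. The same sum was 106 to 189 CPM in aged IR hearts, against 7.61 to 22.3 CPM in aged sham hearts. It was 67.4 to 139 CPM in young IR hearts, against 6.52 to 8.55 CPM in young sham hearts. All 9 rose in young IR and aged IR hearts relative to sham hearts of the same age, and in Sesn2-KO sham hearts relative to young sham hearts. Fibroblast markers summed to 2062 to 4657 CPM in young IR hearts and 1771 to 2482 CPM in young sham hearts, and 5 of 10 rose. They summed to 2354 to 3172 CPM in aged IR hearts, all above the 1694 to 2188 CPM of aged sham hearts, and 3 of 10 rose. In Sesn2-KO sham hearts the sum was 2638 to 3094 CPM, also above all young sham hearts, with 0 of 10 called. Macrophage markers rose for 4 of 10 genes in young IR, 5 of 10 in aged IR and 4 of 10 in Sesn2-KO sham hearts. Of all tested genes 4.17%, 5.36% and 3.32% were called higher in these 3 comparisons. Cardiomyocyte marker sums were 37615 to 41314 CPM in young IR and 38555 to 39888 CPM in Sesn2-KO sham hearts, against 46525 to 47589 CPM in young sham hearts. They were 37190 to 42436 CPM in aged IR hearts, against 45759 to 48280 CPM in aged sham hearts. In that comparison Myh6 (log2 fold change -0.588) and Mybpc3 (-0.621) were called lower. The other cardiomyocyte markers were not called, with values from -0.446 (Ryr2) to 0.142 (Tnnt2), so the sum does not stand for every marker. Endothelial marker sums were 1232 to 1368 CPM in aged IR and 1372 to 1566 CPM in aged sham hearts. T cell marker sums were 5.42 to 7.23 CPM in aged IR and 8.79 to 15.9 CPM in aged sham hearts. Sums of plasma and B cell markers overlapped between aged IR and aged sham hearts. In young mice the sums of these last 3 sets overlapped between IR and sham hearts. The part of these cell types in the results below was not tested.

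Levels between genes were compared per kilobase of the longest protein-coding transcript. In young sham hearts Hsp90b1 and Hspa5 led with 171 ± 30.2 and 170.0 ± 24.9 CPM per kb (mean ± SD, n = 3). These encode the ER members of the HSP90 and HSP70 families and do not differ beyond their spread. Calr, a calcium-binding lectin chaperone, followed with 153 ± 23.1 CPM per kb, within the spread of both. Herpud1 had 133 ± 19.9, Pdia3 81.5 ± 9.82 and Atf4 74.9 ± 10.3 CPM per kb, and Pdia3 and Atf4 overlapped. Among the sensors Atf6 had 22.1 ± 3.76 CPM per kb, which overlapped the 17.5 ± 2.35 CPM per kb of Manf. The other sensors stood lower, with Eif2ak3 at 3.69 ± 0.606, Eif2ak4 at 2.25 ± 0.318 and Ern1 at 1.16 ± 0.615 CPM per kb. Gdf15 was the lowest of the tested genes at 0.618 ± 0.134 CPM per kb.

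**Figure D1:**
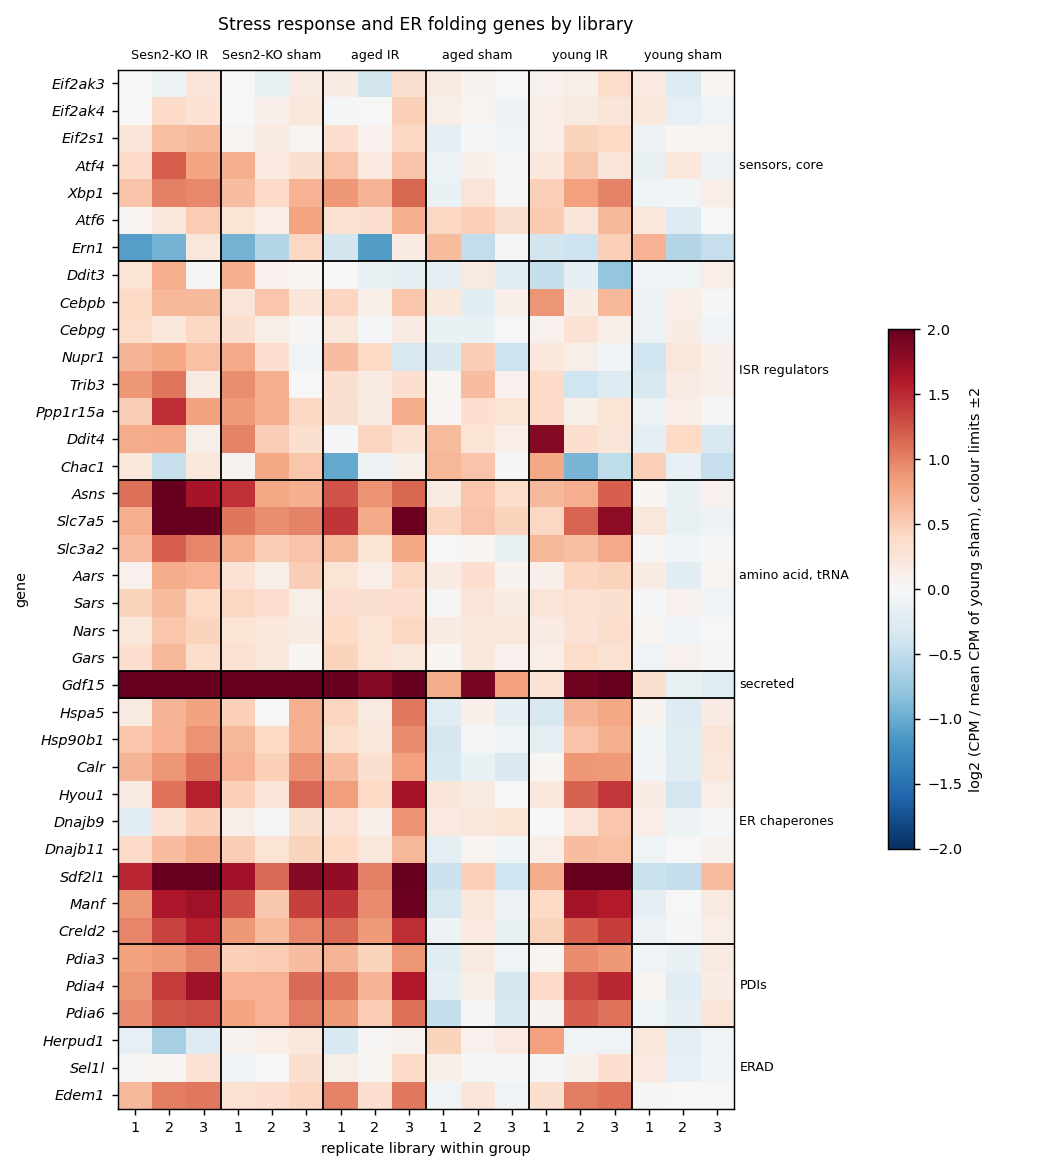
Each cell is the log2 ratio of a library's CPM to the mean CPM of the young sham libraries, for the 38 tested genes (rows, by role) in 18 libraries (columns, 3 per group); colours stop at the limits of the scale. Chaperone and disulphide isomerase rows are mostly red in the IR and Sesn2-KO columns; young IR 1 lies above the young sham mean in 10 of 12 of them, with Hspa5 and Hsp90b1 below, while rows of the ISR regulators are mixed.

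In WT hearts of both ages, IR was followed by higher mRNA levels of ER folding genes, led by Sdf2l1, Manf, Pdia4 and Creld2. In young mice 9 of 38 tested genes rose and 0 fell (edgeR quasi-likelihood test, adjusted p below 0.05), against 6.07% of all tested genes called in either direction, 4.17% called higher and 1.9% called lower. Of these, 7 were among the 15 ER genes, 1 among the 16 tested ATF4-branch genes and 1 among the 7 sensors and core factors. In aged mice 12 of 38 rose and 0 fell, against 7.61% of all tested genes called, 5.36% called higher and 2.24% called lower, with 9 of 15 ER genes, 1 of 16 ATF4-branch genes and 2 of 7 sensors and core factors. The median log2 fold change of the ER genes was 0.64 in young and 0.80 in aged mice, that of the ATF4 branch 0.26 and 0.21, and that of all tested genes 0.01 and 0. The young and aged comparisons share no library. All 9 genes called in young mice were also called in aged mice, where they made up 9 of 12 calls, and 34 of 38 genes had the same sign at both ages. The same shares over all tested genes were not counted, so whether these genes agree more between ages than others was not tested.

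Sdf2l1, an ER protein that works in chaperone complexes with BiP and DNAJB11, moved most among the ER genes. It had 11.3, 30.6 and 27.7 CPM in young IR hearts and 4.98, 4.87 and 10.4 CPM in young sham hearts. In aged mice it had 23.1, 13.5 and 37.1 CPM after IR and 4.98, 9.34 and 5.14 CPM after sham surgery. Every IR value exceeded every sham value at both ages, with a log2 fold change of 1.75 ± 0.42 in young mice (SE, edgeR adjusted p = 0.0231) and 1.92 ± 0.43 in aged mice (edgeR adjusted p = 0.0132). Manf, an ER-resident protein that is secreted when ER calcium falls, had 51.5, 125 and 118 CPM in young IR and 34.2, 39.004 and 44.7 CPM in young sham hearts. It had 105, 75.7 and 153 CPM in aged IR and 31.4, 45.9 and 36.7 CPM in aged sham hearts. Again the groups did not overlap, and the log2 fold changes were 1.29 ± 0.32 (edgeR adjusted p = 0.0269) and 1.56 ± 0.32 (edgeR adjusted p = 0.00978) in young and aged mice. Creld2, a stress-inducible ER protein of the disulphide exchange machinery, had 25.1, 41.8 and 47.5 CPM in young IR and 16.9, 17.8 and 20.1 CPM in young sham hearts. Its aged values were 40.1, 32.9 and 51.1 CPM after IR and 17.1, 20.8 and 16.7 CPM after sham surgery. It rose by 1.03 ± 0.21 in young (edgeR adjusted p = 0.00892) and 1.19 ± 0.21 in aged mice (edgeR adjusted p = 0.00375) on the log2 scale, with the smallest adjusted p of the 38 tested genes at both ages.

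The 3 disulphide isomerases, which form and rearrange disulphide bonds in new secretory proteins, rose at both ages, although in young mice the call of Pdia3 was lost in 19 of 25 other settings, that of Pdia6 in 14 and that of Pdia4 in 7. Pdia4 had 44.5, 86.6 and 97.4 CPM in young IR and 35.3, 29.4 and 37.7 CPM in young sham hearts. Aged hearts had 71.7, 54.8 and 104 CPM after IR and 30.018, 37.1 and 27.1 CPM after sham surgery. The groups did not overlap at either age, with log2 fold changes of 1.13 ± 0.27 (edgeR adjusted p = 0.0235) and 1.30 ± 0.28 (edgeR adjusted p = 0.0113). Pdia6 had 143, 313 and 289.9 CPM in young IR and 128, 119 and 162 CPM in young sham hearts. It had 247, 193 and 292 CPM in aged IR and 97.7, 133 and 109.6 CPM in aged sham hearts. The young groups overlapped through young IR 1 and the aged groups did not, with log2 fold changes of 0.84 ± 0.23 (edgeR adjusted p = 0.0401) and 1.11 ± 0.23 (edgeR adjusted p = 0.00989). Pdia3, which acts with calreticulin on glycoproteins, had 231, 435 and 411 CPM in young IR and 213, 207 and 257 CPM in young sham hearts. Its aged values were 363, 309 and 414 CPM after IR and 193, 255 and 213 CPM after sham surgery. The young groups overlapped, the aged groups did not, and the changes were 0.64 ± 0.18 (edgeR adjusted p = 0.0484) and 0.72 ± 0.18 (edgeR adjusted p = 0.0246) on the log2 scale.

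The most abundant chaperones gave less clear differences. Hspa5 had 498, 1004 and 1069 CPM in young IR and 656, 521 and 696 CPM in young sham hearts. In aged hearts there were 842, 706 and 1291 CPM after IR and 536, 667 and 551 CPM after sham surgery. The aged groups did not overlap, the young groups did, and neither comparison passed the test (log2 fold change 0.43 ± 0.27, edgeR adjusted p = 0.406, in young and 0.70 ± 0.27, edgeR adjusted p = 0.123, in aged mice). Calr had 344, 613 and 602 CPM in young IR and 324, 291 and 389.8 CPM in young sham hearts. It had 512, 419 and 589 CPM in aged IR and 272, 306 and 274 CPM in aged sham hearts, where it rose by 0.85 ± 0.19 on the log2 scale (edgeR adjusted p = 0.0161), while the young difference of 0.60 ± 0.19 did not pass (edgeR adjusted p = 0.0759). Dnajb11, a BiP co-chaperone, had 90.4, 126 and 124 CPM in young IR and 77.5, 83.4 and 86.7 CPM in young sham hearts. It had 109, 96.2 and 130.1 CPM in aged IR and 72.1, 85.5 and 77.8 CPM in aged sham hearts. The groups did not overlap at either age, and the change passed in aged mice (0.52 ± 0.13, edgeR adjusted p = 0.0267) but not in young mice (0.44 ± 0.13, edgeR adjusted p = 0.0643). The difference between the ages was itself not called for any of these genes. Hsp90b1, Hyou1 (a nucleotide exchange factor for BiP) and Dnajb9 (a BiP co-chaperone) had log2 fold changes of 0.27 to 0.99 in young and 0.25 to 0.92 in aged mice, none of them called by edgeR. With limma voom Hyou1 was called in young mice, and Hspa5, Hsp90b1 and Hyou1 in aged mice, and with DESeq2 Hsp90b1 in aged mice.

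Genes of ER-associated degradation did not move together. Edem1, which hands misfolded glycoproteins to degradation, had 29.5, 48.1 and 49.98 CPM in young IR and 24.0, 23.4 and 23.4 CPM in young sham hearts. It had 47.1, 29.9 and 48.8 CPM in aged IR and 22.5, 27.8 and 22.5 CPM in aged sham hearts. It rose by 0.82 ± 0.18 in young (edgeR adjusted p = 0.0159) and 0.80 ± 0.18 in aged mice (edgeR adjusted p = 0.0166) on the log2 scale, without overlap at either age. Herpud1, a membrane scaffold of the degradation complex, had 212, 264 and 274 CPM in aged IR hearts, all below the 354, 276 and 299.5 CPM of aged sham hearts. In young mice it had 458, 248 and 248.9 CPM after IR and 304, 229.8 and 247 CPM after sham surgery, with young IR 1 far above the rest. Its log2 fold changes of -0.29 ± 0.22 in aged and 0.28 ± 0.22 in young mice were not called. Sel1l, the adaptor of the same complex, had log2 fold changes of 0.17 and 0.13 and was not called.

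**Figure D2:**
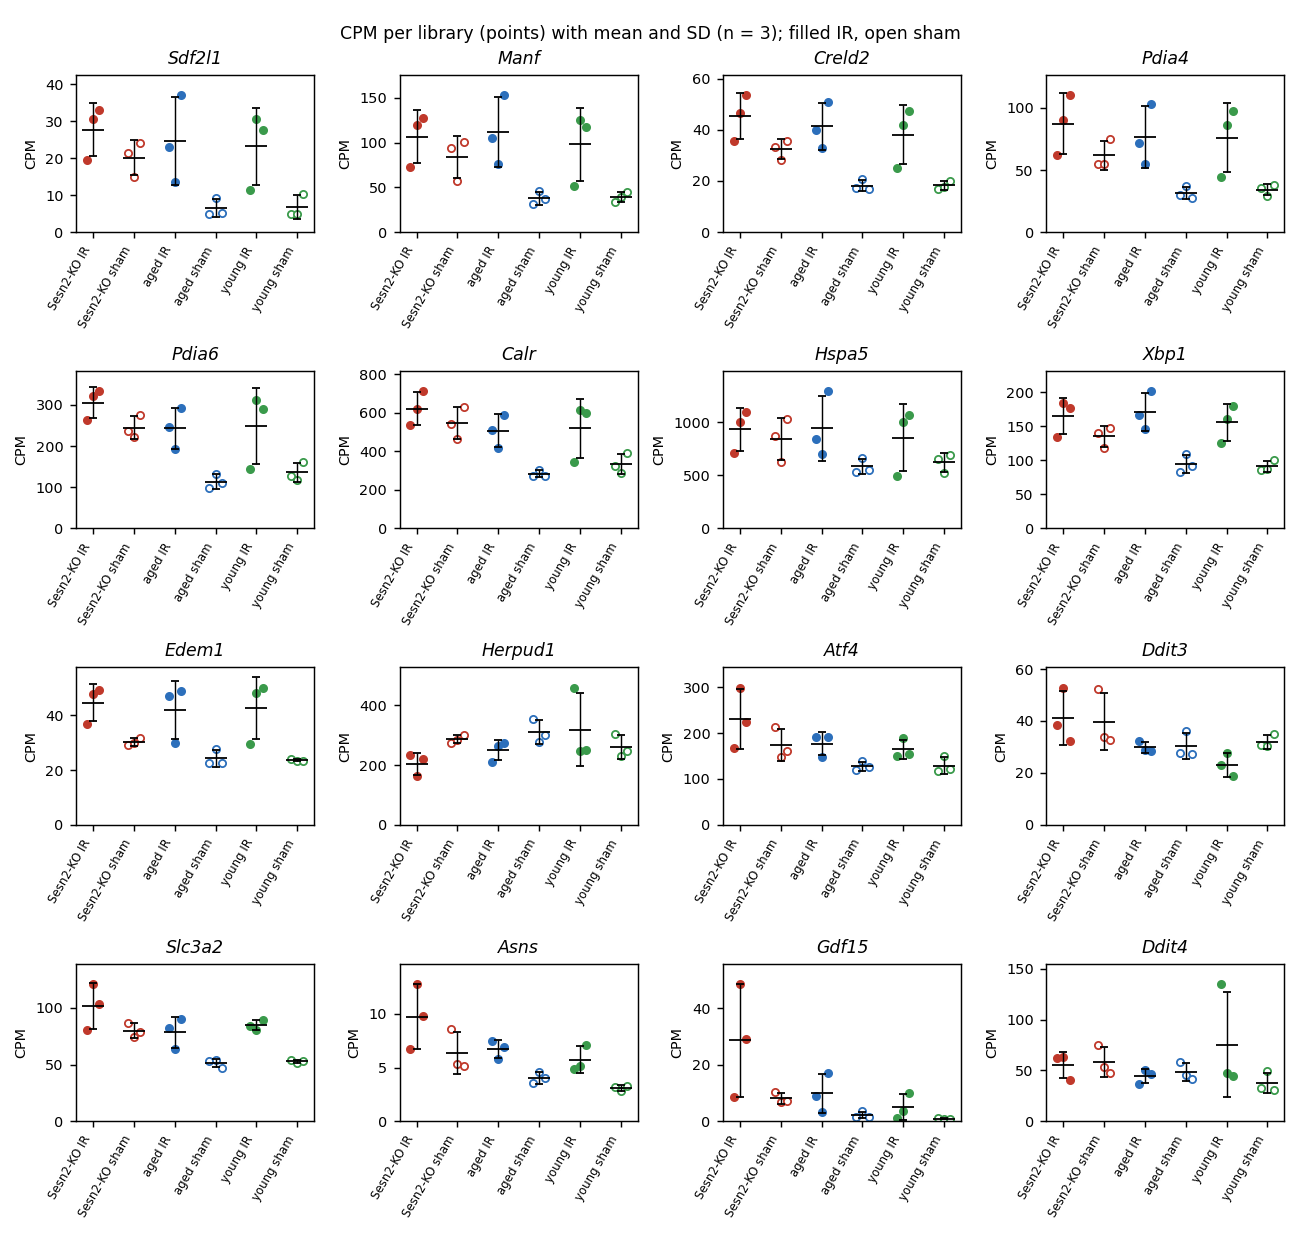
CPM of 16 genes in each library (points; filled for IR, open for sham) with the group mean and SD (n = 3), the vertical axes starting at 0. In Sdf2l1, Manf, Creld2 and Edem1 the IR points of aged and young mice lie above all sham points of the same age, whereas Ddit3 and Herpud1 do not rise after IR at both ages.

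Among the sensors and core factors, Xbp1 rose at both ages. It had 126, 160.4 and 180.0 CPM in young IR and 85.2, 87.4 and 99.97 CPM in young sham hearts. Its aged values were 166, 146 and 201 CPM after IR and 82.7, 109 and 92.0 CPM after sham surgery. No value overlapped at either age, and the log2 fold changes were 0.75 ± 0.16 (edgeR adjusted p = 0.0117) and 0.87 ± 0.16 (edgeR adjusted p = 0.00467). These counts cover spliced and unspliced Xbp1 mRNA alike. Eif2s1 had 114, 95.6 and 119.6 CPM in aged IR and 78.3, 87.6 and 85.1 CPM in aged sham hearts, a rise of 0.40 ± 0.11 on the log2 scale (edgeR adjusted p = 0.0418). In young mice it had 98.7, 122 and 119 CPM after IR and 83.8, 92.4 and 94.0 CPM after sham surgery, also without overlap, and the difference of 0.31 ± 0.11 did not pass (edgeR adjusted p = 0.123).

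Atf4 mRNA itself was not called by edgeR or DESeq2 in any comparison, whereas limma voom called it higher in aged IR than in aged sham hearts and in Sesn2-KO than in young sham hearts. It had 149.8, 189 and 155 CPM in young IR and 117, 149.7 and 121 CPM in young sham hearts. The aged values were 192, 147 and 192 CPM after IR and 119.7, 138 and 125 CPM after sham surgery. Every IR value was above every sham value at both ages, by 0.33 ± 0.18 (edgeR adjusted p = 0.326) and 0.48 ± 0.18 (edgeR adjusted p = 0.115) on the log2 scale. The kinases Eif2ak3 and Eif2ak4 and the sensors Ern1 and Atf6 had log2 fold changes of -0.45 to 0.46 over both ages, none of them called.

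In the ATF4 branch the number of calls depended on the tool, and 13 of its 16 tested members had a log2 fold change above 0 at each age. In young mice edgeR called 1 of 16, DESeq2 6 and limma voom 6, against 7, 9 and 10 of the 15 ER genes. In aged mice edgeR called 1 of 16, DESeq2 2 and limma voom 5, against 9, 10 and 12 of the 15 ER genes. Shares of all genes called are given for edgeR only, so the DESeq2 and limma voom counts have no background beside them. The regulators, which include transcription factors and feedback inhibitors, had 0 of 8 called by edgeR at both ages, with a median log2 fold change of 0.11 in each. Ddit3 (CHOP), the transcription factor tied to death under lasting ER stress, had 22.9, 27.8 and 18.7 CPM in young IR hearts, all below the 30.6, 30.2 and 34.97 CPM of young sham hearts. Among aged hearts the values were 32.3, 28.9 and 28.3 CPM after IR and 27.8, 36.2 and 27.3 CPM after sham surgery. Its log2 fold changes of -0.48 ± 0.20 (edgeR adjusted p = 0.179) and -0.02 ± 0.20 (edgeR adjusted p = 0.971) were not called, and 68 bases of its exons overlap the opposite-strand gene Mars. Cebpb, a C/EBP partner of ATF4, had the smallest adjusted p of the regulators in young mice (0.58 ± 0.17, edgeR adjusted p = 0.0572), where DESeq2 called it, and was 0.35 ± 0.17 higher in aged mice (edgeR adjusted p = 0.231). Ddit4, an inhibitor of mTORC1, stood at 135 CPM in young IR 1 and at 47.2 and 44.3 CPM in the other 2 young IR hearts, against 33.0, 49.4 and 30.5 CPM in young sham hearts. Young IR 1 thus held the only high value, and the difference did not pass (fold 2.0, edgeR adjusted p = 0.115). Trib3, Chac1, Nupr1, Cebpg and Ppp1r15a had log2 fold changes of -0.06 to 0.24 in young and -0.70 to 0.30 in aged mice.

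Of the 7 amino acid and tRNA genes, Slc3a2 rose. This heavy chain pairs with Slc7a5, the large neutral amino acid transporter. It had 84.0, 80.5 and 89.7 CPM in young IR and 53.7, 51.1 and 53.6 CPM in young sham hearts. Aged hearts had 82.0, 63.6 and 90.3 CPM after IR and 53.1, 54.4 and 47.4 CPM after sham surgery. There was no overlap, and the log2 fold changes were 0.66 ± 0.13 (edgeR adjusted p = 0.00938) and 0.62 ± 0.13 (edgeR adjusted p = 0.0125). Asns, which makes asparagine, had 4.91, 5.18 and 7.15 CPM in young IR and 3.23, 2.83 and 3.33 CPM in young sham hearts. It had 7.46, 5.85 and 6.89 CPM in aged IR and 3.53, 4.60 and 4.02 CPM in aged sham hearts. The groups did not overlap, but the differences of 0.85 ± 0.25 (edgeR adjusted p = 0.055) and 0.75 ± 0.24 (edgeR adjusted p = 0.0719) did not pass. Slc7a5 likewise did not pass (log2 fold change 1.19 and 0.99, edgeR adjusted p = 0.0714 and 0.11, in young and aged mice), nor did the tRNA synthetase genes Aars, Sars, Nars and Gars, at 0.25 to 0.32 in young and 0.09 to 0.21 in aged mice.

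The secreted factors were scarce. Gdf15, a stress cytokine of the TGF-beta family, had 1.17, 3.63 and 10.1 CPM in young IR and 1.19, 0.863 and 0.811 CPM in young sham hearts. In aged hearts the values were 9.06, 3.40 and 17.1 CPM after IR and 1.59, 3.56 and 1.68 CPM after sham surgery. The IR values spread widely and overlapped the sham values at both ages, and log2 fold changes of 2.31 ± 0.81 (edgeR adjusted p = 0.105) and 2.11 ± 0.70 (edgeR adjusted p = 0.0763) did not pass. Fgf21 had 3 counts in Sesn2-KO IR, 7 in Sesn2-KO sham, 3 in aged IR, 0 in aged sham, 1 in young IR and 0 in young sham hearts, each over 3 libraries. A count of 0 allows up to 0.0776 CPM in aged sham and 0.0763 CPM in young sham hearts. The 7 counts in Sesn2-KO sham hearts came from 2 of the 3 libraries, and differences in Fgf21 were not tested.

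The libraries of a group differed among themselves. Young IR 1 was the lowest of its group in 12 of 12 chaperone and disulphide isomerase genes, as was aged IR 2, and aged IR 3 was the highest of its group in all 12. Aged IR 3 is 1 of the 6 length-tilted libraries. Of the others, Sesn2-KO IR 3 was the highest of its group in 12, Sesn2-KO sham 3 in 11 and young IR 3 in 6. The tilted young sham 1 and aged sham 1 were the highest in 2 and 1. The part of the length tilt in these genes was not tested. The summed CPM of these 12 genes was 1976, 3662 and 3783 in young IR hearts, against 2070, 1813 and 2389 in young sham hearts, so young IR 1 lay inside the sham range. In aged mice it was 3085, 2589 and 4241 after IR, against 1759, 2153 and 1885 after sham surgery, without overlap. Of the 38 tested genes, 18 were higher in every young IR than in every young sham library (12.7% of all tested genes) and 21 in every aged IR than in every aged sham library (14.8%). Lower without overlap were 1 gene in young mice, Ddit3 (9.63% of all tested genes), and 1 in aged mice, Herpud1 (13.8%). The 9 calls in young mice became 15, 4 and 1 without young IR 1, 2 and 3 and 2, 4 and 4 without young sham 1, 2 and 3. The 12 calls in aged mice became 6 and 4 without aged IR 1 and 3 and 2 and 4 without aged sham 1 and 3. Without the 6 length-tilted libraries, which leaves 2 per group, 0 members were called in either comparison. The called genes were then still higher after IR, 9 of 9 in young and 12 of 12 in aged mice, with median log2 fold changes of 0.68 and 0.64 against 0.84 and 0.86 with all libraries.

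**Figure D3:**
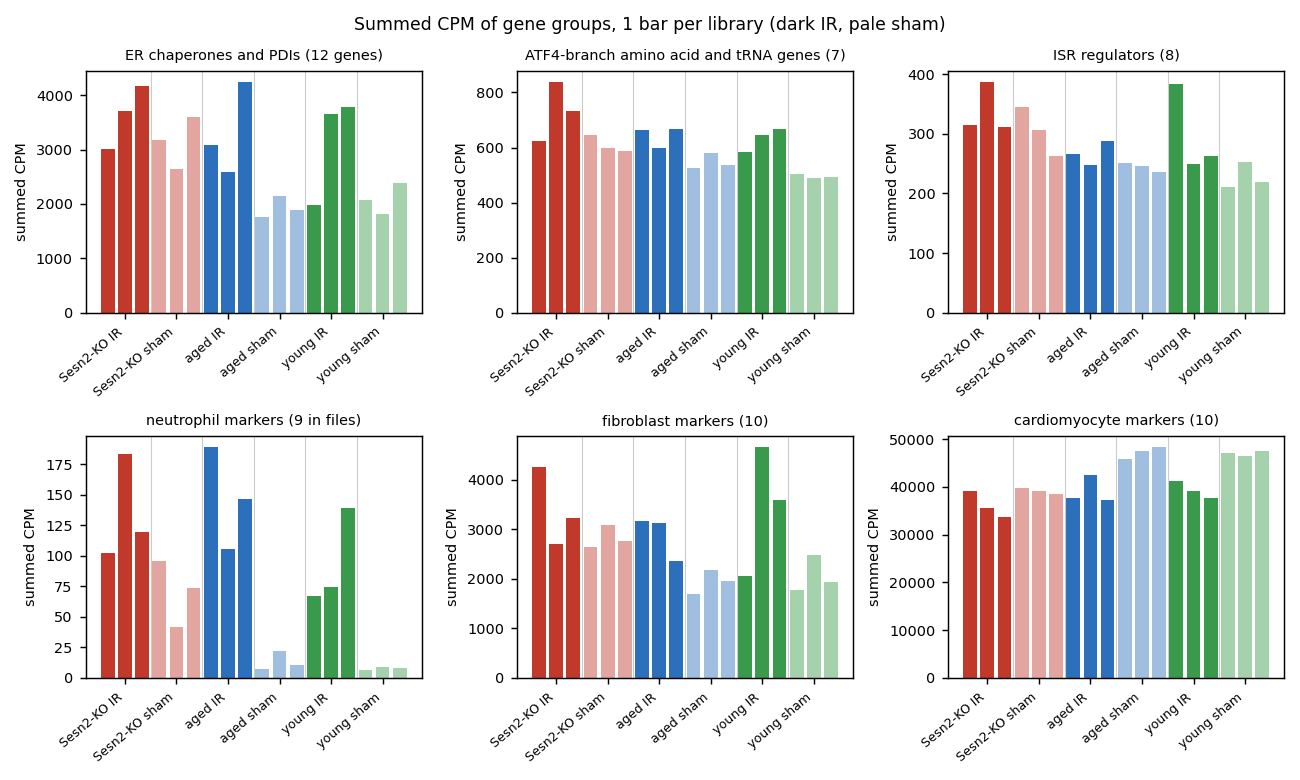
Summed CPM of 6 gene groups, 1 bar per library with axes starting at 0, IR dark and sham pale. The sum of 12 ER chaperone and disulphide isomerase genes reaches 4241 CPM in aged IR 3 and is 1976 CPM in young IR 1; neutrophil marker sums are at most 8.55 CPM in young sham hearts and at least 41.6 CPM in Sesn2-KO sham hearts.

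Other ER genes were counted from lists that hold none of the 39. Over all tested genes, 6.07% were called in either direction in young and 7.61% in aged mice. Of 20 further folding and secretion genes, 6 rose in young and 10 in aged mice, and none fell. P4hb, the founding disulphide isomerase, rose by 0.63 in both, and Pdia5 by 0.82 and 0.69, Serp1 by 0.61 and 0.74 and Txndc5 by 0.59 and 0.56 on the log2 scale in young and aged mice. Of 14 translocon and signal peptidase genes, through which new proteins enter the ER, 3 rose in young and 6 in aged mice. Sec61a1, the channel subunit, rose by 0.67 and 0.65, Spcs3 by 1.26 and 1.32 and Ssr1 by 0.51 and 0.65. Sec61b rose by 1.22 in aged mice and its difference of 0.87 in young mice did not pass. Of 12 further degradation genes none was called in young mice and Ube2j1, a ubiquitin-conjugating enzyme, rose by 0.37 in aged mice. Among 14 further sensors and eIF2 factors, Creb3l1, an ER-tethered transcription factor linked to collagen secretion, rose by 1.08 in young mice. A single call in a list of 12 or 14 genes is near the share over all tested genes. The median log2 fold changes of these 4 lists were 0.38, 0.28, 0.21 and 0.19 in young and 0.44, 0.51, 0.29 and 0.17 in aged mice.

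A longer list of 33 reported ATF4 targets outside the 39 gave 5 genes that rose and 1 that fell in young mice, and 4 that rose and 2 that fell in aged mice. The shares of all tested genes called in either direction were 6.07% in young and 7.61% in aged mice. The genes that rose in both make serine, namely Psat1 (1.75 and 1.86 on the log2 scale in young and aged mice) and Phgdh (1.33 and 1.09). Mthfd2, of mitochondrial one-carbon metabolism, rose by 1.55 in young mice. The transcription factor gene Atf3, which is not among the 39, rose in aged mice (edgeR adjusted p = 0.0217) and did not pass in young mice. Eif4ebp1 also rose in aged mice (log2 fold change 0.558, edgeR adjusted p = 0.0455) and did not pass in young mice (0.483, edgeR adjusted p = 0.089). Stc2, a secreted glycoprotein, fell by 1.04 in young and by 1.31 in aged mice. Cth was also lower in aged mice (log2 fold change -1.543, edgeR adjusted p = 0.0074). The list's median log2 fold change was 0.20 and 0.22. Psat1 had 16.5, 24.7 and 25.8 CPM in young IR and 5.75, 6.28 and 7.55 CPM in young sham hearts, without overlap.

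Sham-operated Sesn2-KO hearts had higher mRNA levels of both ER and ATF4-branch genes than sham-operated young WT hearts. Of 38 tested genes 8 were higher and 0 lower, against 5.11% of all tested genes called, 3.32% called higher and 1.79% called lower. They were Calr, Sdf2l1, Creld2 and Pdia6 (4 of 15 ER genes), Asns, Slc3a2 and Gdf15 (3 of 16 ATF4-branch genes) and Xbp1. Log2 fold changes were above 0 for 37 of 38 genes, with a median of 0.43 against 0.02 for all tested genes. The ER genes had a median of 0.60 and the ATF4 branch of 0.44. This comparison shares the young sham libraries with the IR comparison of young mice, so likeness between them was not tested.

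Gdf15 differed most, with 10.3, 6.92 and 7.24 CPM in Sesn2-KO sham hearts and 1.19, 0.863 and 0.811 CPM in young sham hearts. That is a log2 fold change of 3.07 ± 0.78, or 8.4-fold (edgeR adjusted p = 0.0349), without overlap. Asns had 8.57, 5.36 and 5.14 CPM in Sesn2-KO sham and 3.23, 2.83 and 3.33 CPM in young sham hearts, a log2 fold change of 1.02 ± 0.25 (edgeR adjusted p = 0.0268). Its promoter match to CARE is among those shown above. Slc3a2 had 87.1, 74.6 and 78.4 CPM in Sesn2-KO sham hearts, against 53.7, 51.1 and 53.6 CPM in young sham hearts (0.60 ± 0.13, edgeR adjusted p = 0.0173). All 3 genes separated the groups fully. Among the ATF4-branch genes that did not pass, Ppp1r15a, the phosphatase subunit that reverses eIF2 alpha phosphorylation, came closest. It had 62.8, 57.8 and 46.5 CPM in Sesn2-KO sham and 32.5, 38.4 and 34.0 CPM in young sham hearts (0.67 ± 0.21, edgeR adjusted p = 0.0717). Atf4 had 212, 148 and 161 CPM in Sesn2-KO sham hearts, against 117, 149.7 and 121 CPM in young sham hearts, with a small overlap (0.43 ± 0.18, edgeR adjusted p = 0.204). Ddit3 had 52.3, 33.9 and 32.8 CPM in Sesn2-KO sham and 30.6, 30.2 and 34.97 CPM in young sham hearts, also with overlap (0.31 ± 0.20, edgeR adjusted p = 0.437).

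Sdf2l1 stood furthest above young sham hearts among the ER genes. It had 21.5, 14.8 and 24.0 CPM in Sesn2-KO sham hearts, all above the 4.98, 4.87 and 10.4 CPM of young sham hearts (1.58 ± 0.42, edgeR adjusted p = 0.0418). Creld2 had 33.2, 28.4 and 35.8 CPM in Sesn2-KO sham hearts, against 16.9, 17.8 and 20.1 CPM in young sham hearts (0.83 ± 0.21, edgeR adjusted p = 0.0315). Pdia6 had 236, 221 and 276 CPM in Sesn2-KO sham and 128, 119 and 162 CPM in young sham hearts (0.85 ± 0.23, edgeR adjusted p = 0.0438). None of these values overlapped, and Creld2 and Pdia6 both carry the ERSE shown above. Calr had 545, 466 and 630.3 CPM in Sesn2-KO sham and 324, 291 and 389.8 CPM in young sham hearts (0.71 ± 0.19, edgeR adjusted p = 0.0449). Xbp1 had 139, 118 and 147 CPM in Sesn2-KO sham hearts, against 85.2, 87.4 and 99.97 CPM in young sham hearts (0.57 ± 0.16, edgeR adjusted p = 0.0471). These too did not overlap. Hspa5, at 869.8, 631 and 1032 CPM in Sesn2-KO sham and 656, 521 and 696 CPM in young sham hearts, did overlap (0.44 ± 0.27, edgeR adjusted p = 0.415). Manf did not pass (1.10 ± 0.32, edgeR adjusted p = 0.0582), nor did Pdia4 (0.86 ± 0.27, edgeR adjusted p = 0.0826).

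In all, 20 of 38 genes were higher in every Sesn2-KO sham than in every young sham library (14.9% of all tested genes). Among the further lists, Mthfd2 (1.59), Psat1 (1.14) and the tRNA synthetase gene Cars (0.42) were higher, Stc2 was lower (-1.005) and P4hb was higher (0.49) on the log2 scale. Sesn2 itself, also on the list of further ATF4 targets, was lower too. The further ER lists otherwise gave no call, except that Eif2ak2, an eIF2 kinase activated by double-stranded RNA, was lower (-0.86). The 8 calls rested on several libraries: they became 0, 4 and 2 without Sesn2-KO sham 1, 2 and 3 and 0, 0 and 1 without young sham 1, 2 and 3. They became 5 and 4 without Sesn2-KO IR 2 and 3, 3 without aged IR 1 and 4 without aged sham 3, libraries that enter only through the shared estimate of spread. Without the 6 length-tilted libraries 0 were called, and all 8 genes remained higher, by 0.41 to 3.30 on the log2 scale.

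Within Sesn2-KO mice, IR added little that the test could call. Of 38 genes 0 were called with edgeR, against 0% of all tested genes, while 7 had an unadjusted p below 0.05, DESeq2 called 0 and limma voom called 7. The share of all genes that limma voom called is not given here, so its 7 calls have no background. Log2 fold changes were above 0 for 31 of 38 genes, with a median of 0.17. Sdf2l1 had 19.5, 30.6 and 33.2 CPM in Sesn2-KO IR and 21.5, 14.8 and 24.0 CPM in Sesn2-KO sham hearts (0.41 ± 0.40, edgeR adjusted p = 0.671). Manf had 72.5, 120.0 and 128 CPM in Sesn2-KO IR and 94.2, 56.9 and 101 CPM in Sesn2-KO sham hearts (0.28 ± 0.31, edgeR adjusted p = 0.716). Both overlapped, and Sesn2-KO IR 1 was the lowest of its group in 12 of 12 chaperone and disulphide isomerase genes. Hspa5 had 707, 1001 and 1095 CPM in Sesn2-KO IR and 869.8, 631 and 1032 CPM in Sesn2-KO sham hearts (0.09 ± 0.27, edgeR adjusted p = 0.913). Xbp1 had 135, 184 and 176 CPM in Sesn2-KO IR and 139, 118 and 147 CPM in Sesn2-KO sham hearts (0.23 ± 0.16, edgeR adjusted p = 0.511).

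Of the 38 genes 4 were higher in every Sesn2-KO IR than in every Sesn2-KO sham library, namely Eif2s1, Gars, Pdia3 and Edem1. That count is near the share over all tested genes, 12.6%. Edem1 had 36.8, 47.8 and 49.1 CPM in Sesn2-KO IR and 29.0, 29.7 and 31.8 CPM in Sesn2-KO sham hearts (0.51 ± 0.18, edgeR adjusted p = 0.231). Eif2s1 had 106, 137 and 141 CPM in Sesn2-KO IR and 93.1, 102 and 93.7 CPM in Sesn2-KO sham hearts (0.36 ± 0.11, edgeR adjusted p = 0.21, the smallest of the 38). Pdia3 had 395, 405 and 447 CPM in Sesn2-KO IR hearts, against 314, 322 and 345 CPM in Sesn2-KO sham hearts (0.29 ± 0.18, edgeR adjusted p = 0.47). Herpud1 ran the other way, with 233, 164 and 219 CPM in Sesn2-KO IR hearts, all below the 274, 285 and 300.2 CPM of Sesn2-KO sham hearts (-0.53 ± 0.22, edgeR adjusted p = 0.284). It was the 1 gene of 38 lower without overlap, against 5.49% of all tested genes. Gdf15 had 8.52, 48.5 and 29.0 CPM in Sesn2-KO IR and 10.3, 6.92 and 7.24 CPM in Sesn2-KO sham hearts, and the 48.5 CPM of Sesn2-KO IR 2 was its highest value in any library (1.76 ± 0.62, edgeR adjusted p = 0.229). The summed CPM of the 12 chaperone and disulphide isomerase genes was 3014, 3709 and 4167 in Sesn2-KO IR hearts, against 3180, 2645 and 3599 in Sesn2-KO sham hearts.

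The IR response of Sesn2-KO mice was set against that of young WT mice as a difference of log2 fold changes. No member was called, against 0.0577% of all tested genes, and 6 had an unadjusted p below 0.05 with edgeR, while DESeq2 and limma voom called 0. All 15 ER genes had a value below 0, with a median of -0.47 against -0.03 for all tested genes. All these values come from the same 12 libraries, so the genes are not independent of each other. Sdf2l1 had the most negative value, -1.34 ± 0.58 (95% interval -2.47 to -0.21, edgeR adjusted p = 0.875), and Manf followed with -1.002 ± 0.45 (-1.88 to -0.13, edgeR adjusted p = 0.882). Herpud1 had -0.82 ± 0.31 (-1.43 to -0.20, edgeR adjusted p = 0.799), the smallest adjusted p of the 38. Among the neutrophil markers, 9 of 9 were also below 0 in this difference, with a median of -3.28, and 1 was called. Their part in the values of the ER genes was not tested.

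**Figure D4:**
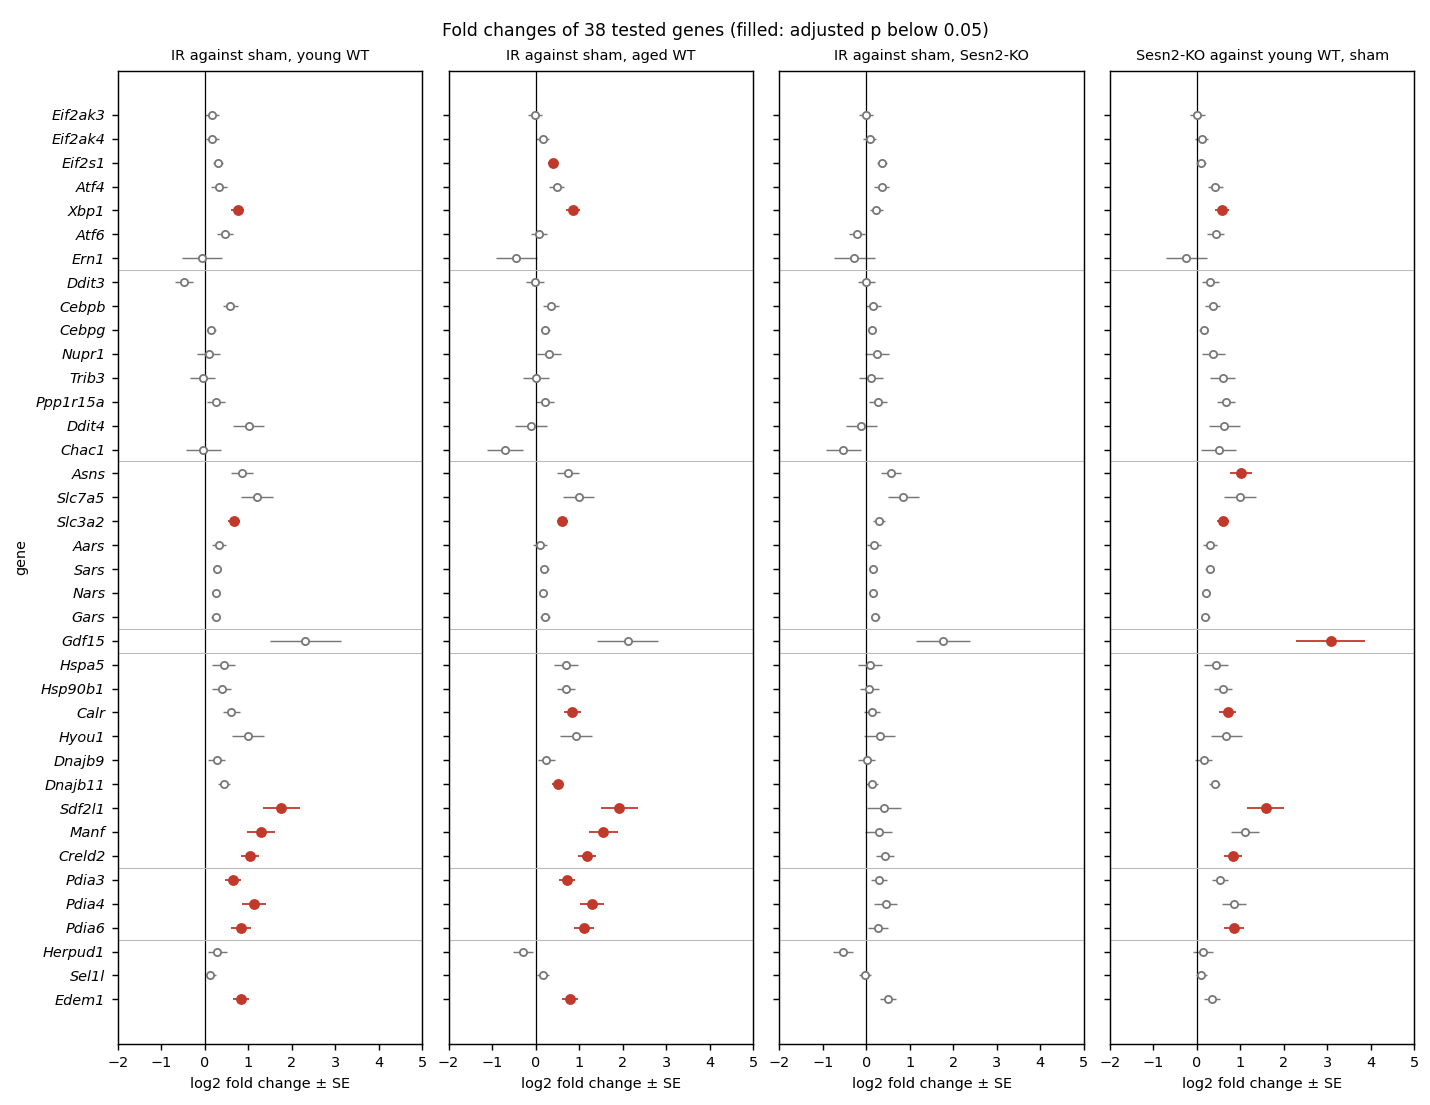
Log2 fold change ± SE (horizontal axis) of the 38 tested genes (rows, by role) in 4 comparisons, filled red where the edgeR adjusted p is below 0.05. There are 9, 12, 0 and 8 filled points in the panels from left to right, and the third panel is IR against sham in Sesn2-KO.

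After IR, the ATF4-branch genes Gdf15, Ddit3, Ppp1r15a and Asns had the smallest adjusted p between Sesn2-KO and young WT hearts, and none passed the test. With edgeR 0 of 38 were called, against 0.433% of all tested genes (0.31% higher and 0.123% lower), and 7 had an unadjusted p below 0.05. DESeq2 called Ddit3 and Gdf15, and limma voom called Ppp1r15a, Asns and Gdf15, without a share over all genes to set beside these calls. The median log2 fold change was 0.20 for the ATF4 branch, 0.10 for the ER genes and 0.01 for all tested genes; the difference between these lists was not tested. Ddit3 had 38.5, 52.7 and 32.4 CPM in Sesn2-KO IR hearts, all above the 22.9, 27.8 and 18.7 CPM of young IR hearts (0.80 ± 0.20, edgeR adjusted p = 0.103). Ppp1r15a had 49.4, 97.2 and 61.2 CPM in Sesn2-KO IR hearts, against 45.7, 37.6 and 42.4 CPM in young IR hearts (0.69 ± 0.20, edgeR adjusted p = 0.18). Gdf15 had 8.52, 48.5 and 29.0 CPM in Sesn2-KO IR and 1.17, 3.63 and 10.1 CPM in young IR hearts, with overlap (2.52 ± 0.66, edgeR adjusted p = 0.12). Asns had 6.69, 12.8 and 9.77 CPM in Sesn2-KO IR and 4.91, 5.18 and 7.15 CPM in young IR hearts (0.73 ± 0.24, edgeR adjusted p = 0.215). Atf4 had 168, 298 and 224 CPM in Sesn2-KO IR hearts, against 149.8, 189 and 155 CPM in young IR hearts (0.45 ± 0.18, edgeR adjusted p = 0.307). Herpud1 was lower in every Sesn2-KO IR than in every young IR library (-0.68 ± 0.22, edgeR adjusted p = 0.227), as were 4.6% of all tested genes. Hspa5, at 0.10 ± 0.27, and Sdf2l1, at 0.24 ± 0.40, did not pass, with edgeR adjusted p = 0.919 and 0.847. Of the 38 genes 4 (Ddit3, Nupr1, Ppp1r15a and Sars) were higher in every Sesn2-KO IR than in every young IR library, against 8.14% of all tested genes. That count is near the share over all genes.

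Comparisons of aged with young WT mice gave no call, and in them age cannot be told apart from source. Between aged and young sham hearts 0 of 38 genes were called with edgeR, against 0.152% of all tested genes (0.144% higher and 0.00722% lower), 2 had an unadjusted p below 0.05, and DESeq2 and limma voom called 0. Between aged and young IR hearts 0 were called, against 0.0649% of all tested genes, 0 had an unadjusted p below 0.05, and both other tools called 0. The difference between the IR responses of aged and young mice gave 0 calls, against 0% of all tested genes, with 1 unadjusted p below 0.05, that of Ddit4 (-1.11 ± 0.51, edgeR adjusted p = 1.0). For the ER genes the aged minus young difference in sham hearts was small, as for Hspa5 (-0.09 ± 0.27) and Sdf2l1 (-0.04 ± 0.44). Gdf15 had 1.59, 3.56 and 1.68 CPM in aged sham hearts, all above the 1.19, 0.863 and 0.811 CPM of young sham hearts (1.25 ± 0.86, edgeR adjusted p = 1.0). Of the 38 genes, 6 were higher in every aged sham than in every young sham library (5.71% of all tested genes) and 2 in every aged IR than in every young IR library (2.44%).

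The calls were set beside the promoter matches as a description. In aged mice 3 of 5 ER genes with an ERSE and 5 of 8 without one rose, and in young mice 2 of 5 and 4 of 8. The 8 without an ERSE include Dnajb11 and Herpud1, which carry ERSE-II, and Dnajb11 was among the 5 called in aged mice. Between Sesn2-KO and young sham hearts 3 of 5 ER genes with an ERSE and 1 of 8 without were called higher. For CARE, 0 of 7 ATF4-branch genes with a match and 1 of 8 without rose after IR at both ages, and 1 of 7 and 2 of 8 were higher in Sesn2-KO sham hearts. The 7 with a match include Fgf21, which was not tested and so could not be called. These are counts in windows of 300 bases and were not tested.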

How the data were processed

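RNA-seq of 18 left ventricles was used, grouped by the sample titles. Per the labels' protocols, RNA came from RNeasy columns, and libraries from a TruSeq stranded mRNA kit were read in pairs on a NextSeq 500. The authors deposited whole-number counts per gene symbol for each library, not normalized. FastQC, Bowtie2, TopHat2, HTSeq and SAMtools with build mm10 were used, per the submitters' processing notes; their settings, the annotation and the strand option are not stated in what was used here. Without the strand option, reads of genes that overlap on opposite strands (Ddit3 and Mars, Manf and Dcaf1, Hsp90b1 and 1810014B01Rik) cannot be told apart, and Aars shares exon bases with Exosc6. Lines for no feature (6.12% to 9.06% of counts) and ambiguous fragments (0.63% to 0.76%) were left out.

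CPM divides a count by the library's total over gene rows. Counts were tested in R 4.3.3 with edgeR 4.0.16 (filterByExpr, TMM library sizes, robust quasi-likelihood, 1 model with 6 group means). Comparisons were 7 contrasts between groups and 2 differences of IR responses, with Benjamini-Hochberg adjustment over all 13859 genes tested in each. A gene is called at an adjusted p below 0.05. The steps were tested on simulated counts. The members and lists were chosen with earlier results of these data known. Every member is accounted for, and values per library are given for members called in any comparison and for Atf4, Ddit3, Hspa5, Xbp1, Gdf15 and Fgf21; from each other list up to 4 genes with the smallest p are named, and further genes were named after their values were seen. Alternatives used DESeq2 1.42.0 and limma 3.58.1. No label ties a library to a litter, surgery day or batch, and p-values therefore reflect library-to-library spread, which may be partly technical. No 2 libraries were copies, with chi-square per degree of freedom of 8.48 to 48.3 within groups. Gene lengths came from GENCODE M21 and promoter windows from RefSeq (GRCm38.p6), with no window matched for Atf6, Slc7a5, Nars, Hyou1 and Manf. Floors of 3 counts allow for counting error alone: there were no molecular identifiers, so reads are not separate molecules.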

Additional observations from a re-analysis of the deposited data

How the results depend on the processing

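Members called in young IR against sham (9), aged IR against sham (12) and Sesn2-KO against young sham (8) were recounted under other settings. DESeq2's Wald test called 16 in young IR, limma voom with quality weights 18 in young IR, 20 in aged IR, 17 in Sesn2-KO sham and 7 in Sesn2-KO IR against sham. For Sesn2-KO against young IR, DESeq2 called 2 and limma voom 3 where edgeR called 0. The shares of all genes called by DESeq2 and limma voom are not given, so these counts are not read against a background. Without a filter on low counts 3 remained in Sesn2-KO sham, and with only the compared groups in the fit 1 in young IR. Without the 6 length-tilted libraries, 0 were called in the first 3 comparisons; that leaves 2 libraries a group, and the cause was not tested. Leaving out 1 library gave 1 to 15 calls in young IR, 2 to 15 in aged IR, 0 to 11 in Sesn2-KO sham and 0 to 1 in Sesn2-KO against young IR. Replicate numbers did not pair the libraries: correlations of same-numbered deviations ran from -0.27 to 0.72, with no comparison above 0.1 in all 3 pairs and at most 4 of 6 libraries closest to their own number. With the replicate block, 11, 13 and 11 members were called in the first 3 comparisons and 0 in the others. Over 29 called gene and comparison pairs and 25 settings, the call held in 524 cases and was lost in 201, and no direction reversed. Slc3a2 in young IR and Xbp1 and Creld2 in aged IR lost the call only without the length-tilted libraries, whereas Pdia3 in young IR lost it in 19 of 25 settings. Genes at a few CPM, such as Gdf15 in young sham hearts, carry few counts, which limits their precision.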

Other observations

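Heat shock genes that fold proteins outside the ER were counted as a further list of 12, mostly cytosolic but with the mitochondrial Hspd1 and Hspe1. In young mice 2 rose after IR and 0 fell, in aged mice 3 rose and 0 fell, and in Sesn2-KO mice 0 were called. The shares of all tested genes called in either direction were 6.07%, 7.61% and 0%. Hspa1b, an inducible HSP70 gene, had 4.91, 14.7 and 6.77 CPM in young IR and 2.73, 3.06 and 1.70 CPM in young sham hearts, a log2 fold change of 1.78 ± 0.34 (edgeR adjusted p = 0.00656). Aged hearts had 6.85, 5.21 and 5.76 CPM after IR and 1.94, 2.45 and 2.06 CPM after sham surgery, a log2 fold change of 1.48 ± 0.35 (edgeR adjusted p = 0.0189). In Sesn2-KO mice it had 9.23, 13.9 and 13.6 CPM after IR and 3.88, 5.51 and 6.51 CPM after sham surgery, without overlap, but the difference of 1.146 ± 0.318 did not pass (edgeR adjusted p = 0.202). Hspa1a, a near-identical copy whose reads the counting could split, rose by 1.20 ± 0.31 in young mice (edgeR adjusted p = 0.034) and did not pass in aged mice (0.93 ± 0.33, edgeR adjusted p = 0.0924). Hspb1, a small heat shock protein gene, rose by 1.51 ± 0.40 in aged mice (edgeR adjusted p = 0.0295) and did not pass in young mice (1.36 ± 0.40, edgeR adjusted p = 0.0515). Dnaja1, an HSP70 co-chaperone gene, rose by 0.44 ± 0.12 in aged mice (edgeR adjusted p = 0.0382). The list's median log2 fold change was 0.17 in young, 0.32 in aged and 0.17 in Sesn2-KO mice.

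The spread of the ER genes differed between groups. The median coefficient of variation over the 15 genes was 17.9% in Sesn2-KO IR and 12.1% in Sesn2-KO sham hearts, 25% in aged IR and 12.5% in aged sham hearts, and 31.0% in young IR and 13.4% in young sham hearts. This difference was not tested.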
